A study of Homo sapiens with 6 samples.

Results

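Adhesion G-protein-coupled receptors were examined in MOLM-13, an established human acute myeloid leukaemia line that carries an MLL-AF9 fusion. The receptors were the protein-coding genes of the deposited count table whose symbol begins with ADGR followed by a subfamily letter and a number. This gave 29 genes of the 58381 gene identifiers in the table, of which 19881 are protein-coding. The family was picked on measured values of the contrast described here, namely that many of its transcripts differed between the groups, so its changes are given as a description and support nothing beyond themselves. RNA was sequenced from cells kept for 20 h in 5 µM DB2115, a compound given in the sources by this code name, and from cells kept for the same time in vehicle (VEH, 0.001% DMSO). The series title names PU.1, an ETS-family transcription factor encoded by SPI1, as its subject, and the contrast asks how transcription in this leukaemia line differed with the compound. All libraries came from this 1 line, so the values describe MOLM-13 and not leukaemia cells in general.

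Adhesion receptors have a long extracellular region, a membrane-near domain that in most of them cuts the protein in itself, and a core that spans the membrane like other G-protein-coupled receptors. The outer fragment binds matrix proteins or proteins on neighbouring cells, and the short stretch exposed by the cut acts as a tethered agonist that switches on heterotrimeric G proteins. In blood the ADGRE receptors mark myeloid cells and other leukocytes, and several ADGRG receptors are found on granulocytes, cytotoxic lymphocytes and primitive haematopoietic cells. The ADGRL receptors, also called latrophilins, and the ADGRB receptors are best known from the nervous system.

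The labels list 3 libraries per group. The third column of each group equalled the sum of the other columns exactly in 86.3% (DB2115) and 85.6% (VEH) of genes with counts, and was left out as a pooled column, which leaves n = 2 per group for every comparison. The DB2115 libraries held 40067286 and 39647758 counts in total, against 36547900 and 42446253 for VEH, and a count of 3 equals 0.0725 to 0.0854 CPM (counts scaled to the library size), depending on the library. Nothing in the labels ties the libraries to separate cultures, and p-values therefore rest on a spread that may be technical. Of 8 myeloid markers 5 were higher with DB2115, among them MPO and CD14, and FLT3 and LYZ were lower. Mean MPO was 290 CPM with DB2115 and 52.6 CPM with VEH. Mean FLT3 was 139 CPM with DB2115 and 431 CPM with VEH, and mean LYZ was 88.2 and 210 CPM. The summed level of the 8 markers thus hides opposite shifts. It lay between 874 and 925 CPM in DB2115 libraries, against 949.8 to 979 CPM in VEH libraries. SPI1 had 8585 and 7097 counts in DB2115 libraries, against 6585 and 7320 in VEH libraries, and was not called. The 3 markers of the MLL-AF9 programme (HOXA9, HOXA10 and MEIS1) were called higher, at summed levels of 326 to 344 CPM with DB2115 and 210.3 to 210.4 CPM with VEH. Among markers of other cells, the erythroid marker HBB had at most 1 count in any library. The natural killer cell markers NKG7 and GNLY were higher and NCAM1 lower. Mean NKG7 was 81.3 CPM with DB2115 and 18.7 CPM with VEH, against 70.9 and 153 CPM for NCAM1. The natural killer cell list summed to 154 to 155 CPM with DB2115 and 169 to 175 CPM with VEH. The B cell list summed to 12.7 to 13.6 CPM with DB2115 and 1.48 to 1.57 CPM with VEH, the T cell list to 0.387 to 1.30 CPM with DB2115 and 0.0484 to 0.0569 CPM with VEH, and the endothelial list to 168 to 169 CPM with DB2115 and 70.8 to 74.5 CPM with VEH, nearly all of it PECAM1, which leukocytes also express. The fibroblast list summed to 37.4 to 47.4 CPM with DB2115 and 4.50 to 10.8 CPM with VEH. Most of that sum was COL1A1, at 35.2 and 42.3 CPM with DB2115 and 7.71 and 3.39 CPM with VEH. COL1A2 was not called, and DCN had at most 5 counts in any library. The neural list summed to 1.69 to 2.10 CPM with DB2115 and 0.342 to 0.751 CPM with VEH. In it GFAP had 52 and 40 counts with DB2115 and none with VEH. SYP was not called, and MAP2 had 3 and 8 counts with DB2115, against 0 and 20 with VEH. The epithelial list summed to 0.145 to 0.171 CPM with DB2115 and 0.339 to 0.484 CPM with VEH. CD14 and GNLY passed the filter on low counts only through DB2115 libraries, as did markers in the T cell, endothelial and neural lists. The part of these shifts in the receptor values was not tested, and in bulk RNA fewer cells of a type and less RNA per cell cannot be told apart.

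Most of the receptors with enough counts for the test were more abundant after DB2115. Summed over all 29 receptors, the level was 1019 and 1040 CPM in DB2115 libraries, against 504 and 516 CPM in VEH libraries, a ratio of 2.02. Of the 13 receptors with enough counts for the test, 11 were called higher and 2 lower at an adjusted p under 0.05 (edgeR quasi-likelihood test over 17219 genes), and 9 of the 11 were higher by at least 2-fold. Across all genes tested 32.7% were called higher and 31.3% lower, 64.1% in either direction, and 17.5% were called and at least 2-fold higher, against 9.53% at least 2-fold lower. Because this contrast chose the family, nothing is read from the members' count against that background. The median log2 fold change of the 13 receptors was 1.49 (quartiles 0.76 and 3.44), and that of all genes tested was 0.03 (quartiles -0.48 and 0.68). The test had kept 3 of the 13, among them ADGRE1 and ADGRG1, only through their counts in DB2115 libraries. The filter itself thus favoured a higher value for these 3, and their calls support nothing. Under a filter of 1 CPM in at least 3 libraries, 10 receptors were tested, of which 8 were called higher and 2 lower, beside 35.5% higher and 35.4% lower of 12604 genes.

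**Figure D1:**
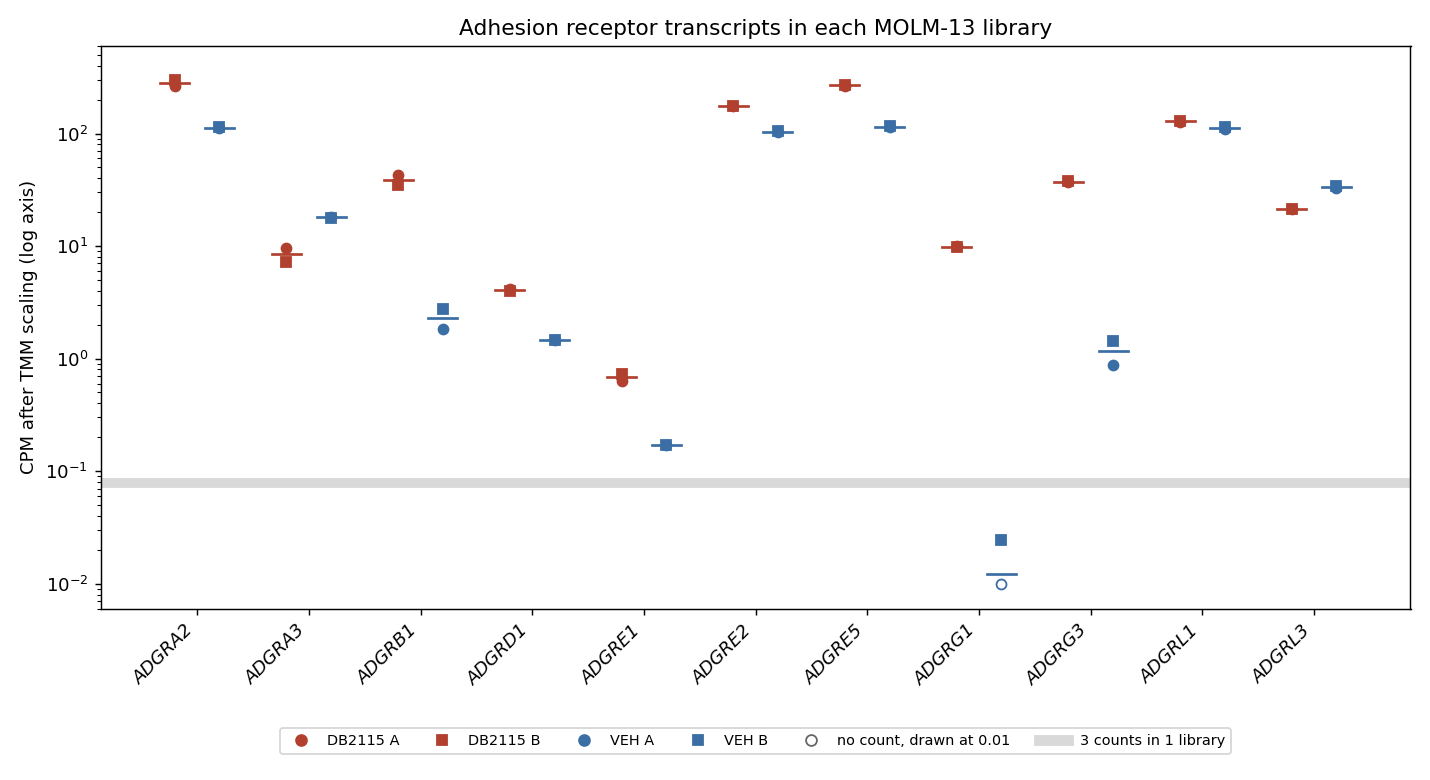
Level of 11 of the 13 tested receptors in CPM after scaling by the trimmed mean of M-values (vertical log axis), with DB2115 libraries in red left of VEH libraries in blue, circles and squares for libraries A and B, bars for group means and a grey band for 3 counts in 1 library. ADGRA3 and ADGRL3 lie lower in DB2115 libraries, the other receptors drawn lie higher, and ADGRG1 lies under the grey band in both VEH libraries. ADGRE1 and ADGRG1 passed the filter only through DB2115 libraries, so the filter itself favoured a higher value for them. With 64.1% of all genes tested called, nothing is read from the number of receptors that lie apart.

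The ADGRE receptors carry epidermal-growth-factor-like repeats in their outer region and made up the largest share of the family's transcripts among the subfamilies. They summed to 445 ± 2.46 CPM in DB2115 libraries and 219 ± 1.92 CPM in VEH libraries (SD, n = 2 each), which was 43.3% of the family's level with DB2115 and 43.0% with VEH. ADGRE5, or CD97, is a leukocyte receptor that binds the complement regulator CD55. Its gene lies on chromosome 19 (14380501 to 14408725, plus strand, GRCh38) and had 10902 and 11207 counts in DB2115 libraries, against 3996 and 4772 in VEH libraries. That was 269 ± 3.03 CPM with DB2115 and 115 ± 1.28 CPM with VEH (SD, n = 2 each), a log2 fold change of 1.23 ± 0.06 (SE). Per kilobase of exon ADGRE5 was the most abundant receptor in both groups, at 49.9 CPM per kb with DB2115 and 21.3 CPM per kb with VEH.

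ADGRE2, or EMR2, a receptor of monocytes and granulocytes that binds sulphated sugar chains, moved less than ADGRE5. It had 7223 and 7261 counts in DB2115 libraries, against 3634 and 4314 in VEH libraries, with 176 ± 0.79 CPM under DB2115 and 104 ± 0.72 CPM under VEH (SD, n = 2 each). The DB2115 libraries lay above the VEH libraries, and the log2 fold change was 0.76 ± 0.06 (SE). Whether counting used strand is not known from the labels, and 15.7% of the exon length of ADGRE2 is shared with ZNF333 on the opposite strand. ZNF333 itself was lower, at 12.2 CPM with DB2115 and 20.7 CPM with VEH. ADGRE2 and ADGRE5 are also close copies of each other, and 6.92% of the 100-base words of ADGRE5 transcripts occur in ADGRE2 as well, so reads from those stretches cannot be assigned to either gene with certainty.

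ADGRE1, or EMR1, which in people marks eosinophils, was at the low end of the tested receptors, with 26 and 30 counts in DB2115 libraries, against 6 and 7 in VEH libraries. Its log2 fold change of 1.98 ± 0.50 (SE) is the least precise of those reported with an error. ADGRE3 had 3 and 12 counts in DB2115 libraries, against 4 and 0 in VEH libraries, so the groups overlapped and it was below the filter. ADGRE4P, a transcribed pseudogene next to ADGRE1 on chromosome 19, is outside the protein-coding set. It had 225 and 224 counts in DB2115 libraries, against 2 and 8 in VEH libraries. ADGRE4P passed the filter only through its counts in DB2115 libraries, so the filter itself favoured a higher value.

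Among the ADGRG receptors, ADGRG1 and ADGRG3 had few or no counts with VEH and were called higher with DB2115. They lie next to each other on the plus strand of chromosome 16, ADGRG1 at 57610652 to 57665580 and ADGRG3 at 57668187 to 57689378 (GRCh38).

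ADGRG1, or GPR56, is a receptor of cytotoxic lymphocytes and primitive blood cells and, in the brain, of neural progenitors. It had 408 and 407 counts in DB2115 libraries, against 0 and 1 in VEH libraries, which was 9.90 ± 0.098 CPM with DB2115, while both VEH libraries were below the level of 3 counts. The ratio of the summed counts was 757, with an exact 95% counting interval of 135 to 29921 that covers counting error only. The fitted log2 fold change of 9.25 rests on the lone VEH count and was 11.59 without VEH replicate B and 8.50 without VEH replicate A. None of the 100-base words of ADGRG1 transcripts occurs in another annotated gene. The RefSeq promoter windows of ADGRG1 on GRCh38.p14 (250 bases before to 50 after an annotated start, plus strand) are shown because this receptor had the largest fitted change of the family. Capitals mark AAAA or its reverse complement. GAGGAA, a sequence recognised by PU.1, or its reverse complement, would be in capitals too but occurs in none of the 3 windows. Other sequences that ETS factors recognise were not marked, so no lack of ETS sites is read from this.
ADGRG1 window chr16:57619488-57619787: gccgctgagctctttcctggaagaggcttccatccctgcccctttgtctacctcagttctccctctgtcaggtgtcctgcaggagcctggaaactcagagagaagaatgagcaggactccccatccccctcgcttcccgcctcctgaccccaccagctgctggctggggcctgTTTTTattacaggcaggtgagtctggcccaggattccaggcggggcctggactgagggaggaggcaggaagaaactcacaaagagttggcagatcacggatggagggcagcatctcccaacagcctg
ADGRG1 window chr16:57619796-57620095: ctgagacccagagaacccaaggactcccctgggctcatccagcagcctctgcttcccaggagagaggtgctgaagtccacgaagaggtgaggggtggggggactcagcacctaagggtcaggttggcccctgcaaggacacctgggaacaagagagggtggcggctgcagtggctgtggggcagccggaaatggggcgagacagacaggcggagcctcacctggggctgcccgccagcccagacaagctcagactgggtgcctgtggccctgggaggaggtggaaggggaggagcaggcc
ADGRG1 window chr16:57628380-57628679: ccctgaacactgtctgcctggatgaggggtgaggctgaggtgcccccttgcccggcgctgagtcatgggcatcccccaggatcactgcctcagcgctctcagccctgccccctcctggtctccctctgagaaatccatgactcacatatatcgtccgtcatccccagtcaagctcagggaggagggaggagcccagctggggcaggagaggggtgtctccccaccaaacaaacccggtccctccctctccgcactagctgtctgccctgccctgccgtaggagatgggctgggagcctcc

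ADGRG3, or GPR97, a receptor of neutrophils, had 1511 and 1558 counts in DB2115 libraries, against 31 and 59 in VEH libraries. Its level was 37.3 ± 0.50 CPM with DB2115 and 1.16 ± 0.39 CPM with VEH (SD, n = 2 each). The gap between the groups was far wider than the spread within either, and the fitted log2 fold change of 4.98 ± 0.15 (SE), a 31.7-fold difference, ranked 373 from the top of 17219 genes. Of the exon length of ADGRG3, 3.21% overlaps an antisense gene, ENSG00000260467, which had 41 and 39 counts in DB2115 libraries, against 5 and 4 in VEH libraries. Per kilobase of exon, ADGRG3 stood at 11.2 CPM per kb with DB2115, against 0.347 CPM per kb with VEH.

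Genes around ADGRG1 and ADGRG3 did not all move with them. DOK4, which encodes a docking protein of receptor tyrosine kinases, was higher, with a log2 fold change of 5.11 ± 0.20 (SE). CCDC102A (1.61), DRC7 (1.40) and KIFC3 (1.51) were also called higher, whereas CIAPIN1 (-0.58), COQ9 (-0.23) and POLR2C (-0.39), an RNA polymerase subunit, were called lower, all as log2 fold changes. A cluster on chromosome 19 holds ADGRL1, ADGRE5, ADGRE3 and ADGRE2, and its neighbours were mixed in direction too. DDX39A, on the opposite strand with its end beside the end of ADGRE5, fell by 0.85 on the log2 scale, while the prostaglandin receptor PTGER1 rose by 3.95. PTGER1 passed the filter only through its counts in DB2115 libraries, so the filter itself favoured a higher value. In the chromosome 6 clusters, ADGRF5 with ADGRF1 and ADGRF2 with ADGRF4, no receptor had more than 2 counts in any library.

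**Figure D2:**
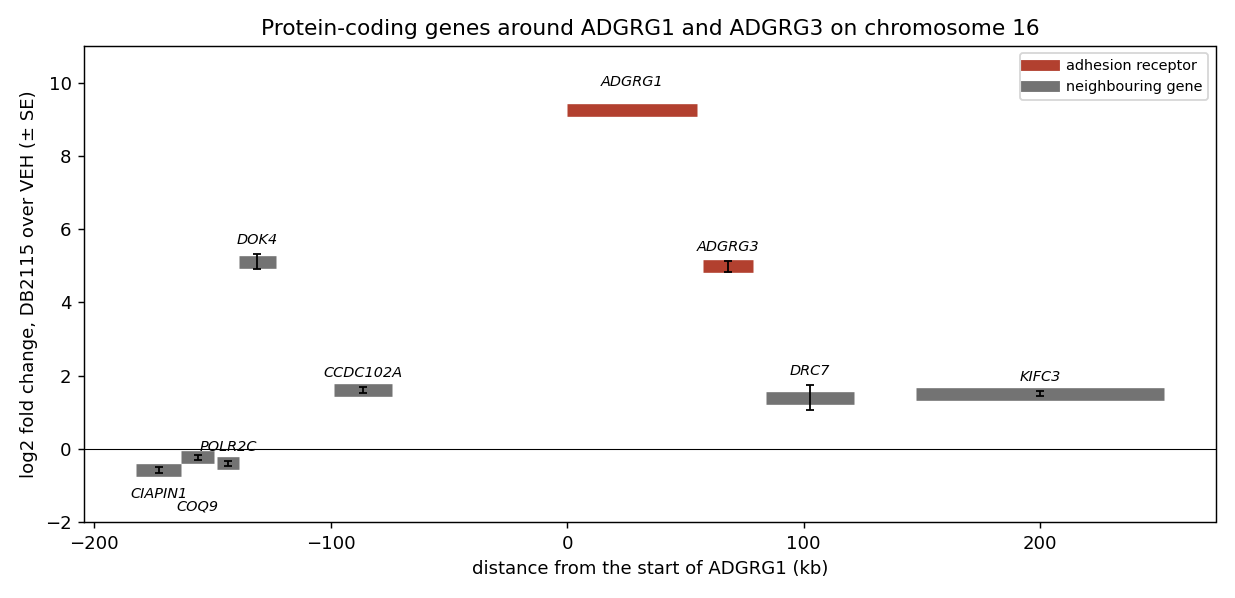
Log2 fold change of DB2115 over VEH (vertical axis, lines for the SE, none drawn for ADGRG1) of ADGRG1, ADGRG3 and named protein-coding genes around them, each drawn as a bar over its position in kb from the start of ADGRG1. ADGRG1 and ADGRG3 in red and 4 grey neighbours were called higher, and the 3 leftmost neighbours were called lower.

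The ADGRA receptors split in direction. ADGRA2, or GPR124, which with RECK presents WNT7 ligands to Frizzled receptors in brain endothelium, was abundant in both groups. It had 10769 and 12286 counts in DB2115 libraries, against 3904 and 4696 in VEH libraries, with 280 ± 23.8 CPM under DB2115 and 112 ± 1.83 CPM under VEH (SD, n = 2 each). The log2 fold change was 1.32 ± 0.07 (SE). Of its exon length 23.1% overlaps BRF2 on the opposite strand, and BRF2 was far less abundant, at 6.16 CPM with DB2115 and 7.89 CPM with VEH.

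ADGRA3, or GPR125, was the receptor with the largest fall. It had 393 and 300 counts in DB2115 libraries, against 642 and 729 in VEH libraries, or 8.43 ± 1.67 CPM with DB2115 and 18.0 ± 0.44 CPM with VEH (SD, n = 2 each). The DB2115 libraries lay below both VEH libraries, 2.13-fold lower, with a log2 fold change of -1.09 ± 0.13 (SE). ADGRA1 had 3 and 1 counts in DB2115 libraries and none in VEH libraries. The RefSeq window of ADGRA3 (minus strand, GRCh38.p14), shown for comparison with ADGRG1, is 78.3% G and C and holds neither GAGGAA nor AAAA on either strand, so it has no capitals.
ADGRA3 window chr4:22516017-22516316: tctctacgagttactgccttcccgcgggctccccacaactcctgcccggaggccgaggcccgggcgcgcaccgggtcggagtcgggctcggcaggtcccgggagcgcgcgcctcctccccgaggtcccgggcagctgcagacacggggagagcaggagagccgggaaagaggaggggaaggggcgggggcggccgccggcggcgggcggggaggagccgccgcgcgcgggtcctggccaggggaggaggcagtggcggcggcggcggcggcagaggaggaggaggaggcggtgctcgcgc

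The ADGRB receptors were represented by ADGRB1, or BAI1, a receptor for phosphatidylserine on dying cells that signals through ELMO and DOCK proteins. ADGRB1 had 1744 and 1445 counts in DB2115 libraries, against 64 and 115 in VEH libraries. That was 38.8 ± 5.46 CPM with DB2115 and 2.30 ± 0.68 CPM with VEH (SD, n = 2 each), a 16.6-fold difference with a log2 fold change of 4.05 ± 0.16 (SE). The spread within VEH libraries was wide relative to their mean but small beside the gap to the DB2115 libraries. ADGRB2 had 7 and 5 counts in DB2115 libraries, against 0 and 3 in VEH libraries, and ADGRB3 had no more than 2 counts in any library.

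The latrophilins were the subfamily whose total barely differed, at 149 ± 2.92 CPM in DB2115 libraries and 146 ± 4.27 CPM in VEH libraries (SD, n = 2 each), and the libraries of the groups overlapped in this sum. Their share of the family's level was 14.5% with DB2115 and 28.6% with VEH. ADGRL1, which binds teneurins and neurexins, had 5156 and 5380 counts in DB2115 libraries, against 3859 and 4725 in VEH libraries, or 128 ± 2.80 CPM with DB2115 and 112 ± 3.23 CPM with VEH (SD, n = 2 each). Its log2 fold change of 0.19 ± 0.06 (SE) was called, but the call was lost without DB2115 replicate B (0.16), without VEH replicate A (0.15) and without VEH replicate B (0.20), and the adjusted p ranged from 0.00112 to 0.170 over all alternatives (edgeR, DESeq2 and limma-voom). ADGRL3, which binds teneurins and FLRT proteins at synapses, had 867 and 880 counts in DB2115 libraries, against 1142 and 1408 in VEH libraries. It was 1.57-fold lower with DB2115, at 21.2 ± 0.049 CPM, against 33.3 ± 1.12 CPM with VEH (SD, n = 2 each), with a log2 fold change of -0.65 ± 0.08 (SE). ADGRL2 had at most 4 counts in any library, and ADGRL4, an endothelial receptor, had none.

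**Figure D3:**
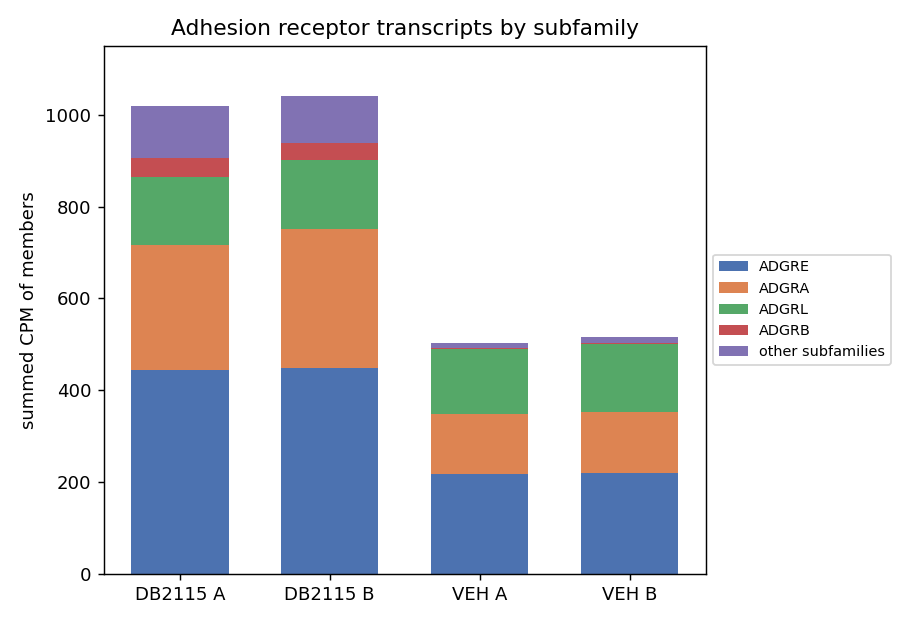
Summed CPM of the receptors of each subfamily (vertical axis, stacked) in the DB2115 libraries on the left and the VEH libraries on the right. The stacks reach 1019 and 1040 CPM with DB2115, against 504 and 516 CPM with VEH, and the green ADGRL layer is of about the same height in all 4 libraries, while the blue ADGRE and orange ADGRA layers are thicker with DB2115; the receptors of the other subfamilies but ADGRB are drawn together.

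ADGRD1, or GPR133, which couples to the stimulatory G protein, had 170 and 166 counts in DB2115 libraries, against 51 and 60 in VEH libraries (log2 fold change 1.49 ± 0.21, SE).

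Over the family, windows were at hand for 19 of the 29 receptors, 5 of them called, and GAGGAA on either strand occurred in 11 of 35 windows, beside 27.9% of 35116 windows of the same length over all genes. The longer GAGGAAGT, which contains GAGGAA, occurred in 1 window, that of ADGRG6, beside 2.59% of all windows. ADGRG6 had at most 1 count in any library. AAAA occurred in most of the 35 receptor windows and in 71.4% of all windows. These matches describe letters in the windows and not binding.

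The 16 receptors that were not tested include ADGRG2, with 10 and 10 counts in DB2115 libraries, against 6 and 6 in VEH libraries, and ADGRV1, the giant receptor of inner-ear hair cells, with 7 and 0 counts in DB2115 libraries, against 6 and 5 in VEH libraries. ADGRD2 had 6 and 1 counts in DB2115 libraries and none in VEH libraries. No count was found in any library for ADGRF2, ADGRF4, ADGRG4 and ADGRL4; ADGRF2 is annotated as protein-coding in GENCODE 29 and as a pseudogene in RefSeq. ADGRF1, ADGRF5, ADGRG6, the receptor of myelinating Schwann cells, and ADGRG7 had at most 2 counts in any library. At this depth a receptor without counts may still have been transcribed below 3 counts per library.

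Set against one another per kilobase of exon, the receptors described here ran, with DB2115, from ADGRE5 (49.9 CPM per kb) and ADGRA2 (39.7) through ADGRE2 (20.4), ADGRL1 (15.1) and ADGRG3 (11.2) to ADGRB1 (5.27), ADGRL3 (1.52), ADGRG1 (1.14) and ADGRA3 (0.911). Below these came ADGRD1 (0.277) and ADGRE1 (0.183). With VEH the order was ADGRE5 (21.3 CPM per kb), ADGRA2 (15.9), ADGRL1 (13.2), ADGRE2 (12.1), ADGRL3 (2.38) and ADGRA3 (1.94). Below these came ADGRG3 (0.347), ADGRB1 (0.313), ADGRD1 (0.0987), ADGRE1 (0.0459) and ADGRG1 (0.0014). The 4 most abundant receptors were thus shared by the groups. Next below them with VEH stood ADGRL3 and ADGRA3, which fell, and further down stood receptors that rose.

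**Figure D4:**
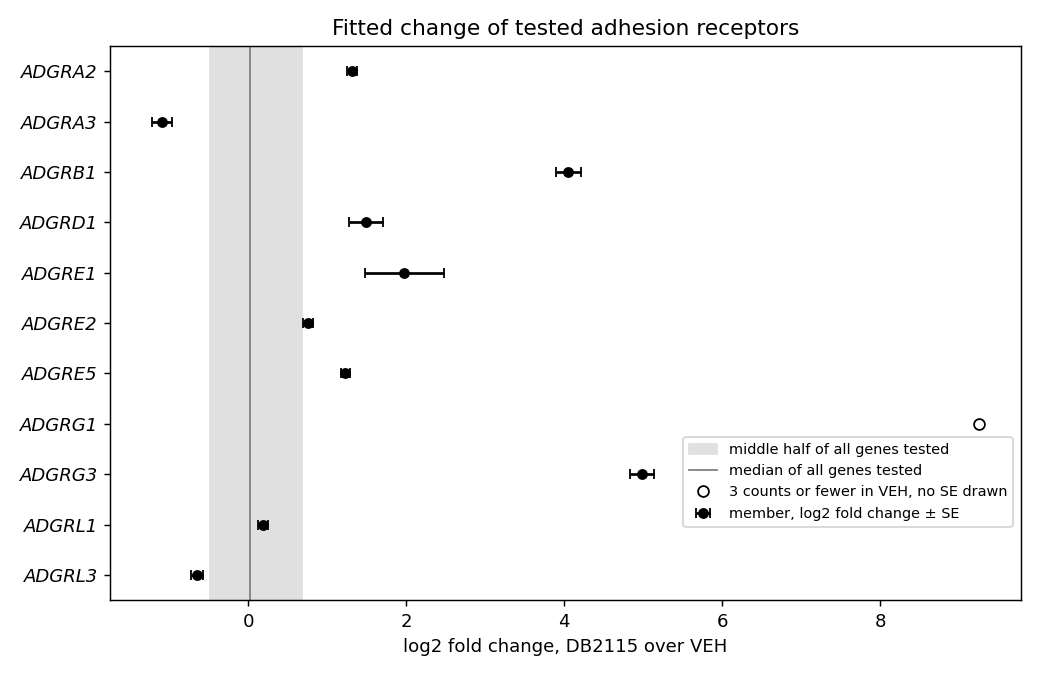
Log2 fold change of DB2115 over VEH (horizontal axis) for 11 of the 13 tested receptors by subfamily letter, with SE bars; ADGRG1, drawn as an open circle with no bar, had 1 count in all over the VEH libraries. The grey band runs between the quartiles of all genes tested (-0.48 and 0.68); ADGRL1 (0.19) lies inside it, ADGRA3 and ADGRL3 lie left of it and the other receptors lie right of it.

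Genes outside the symbol rule belong to the same pathway. Of the cadherin-type adhesion receptors, which act in planar cell polarity, CELSR2 had 346 and 400 counts in DB2115 libraries, against 118 and 128 in VEH libraries (log2 fold change 1.49, called higher). CELSR3 was not called (log2 fold change -0.09, adjusted p = 0.624 by edgeR), and CELSR1 was below the filter. The binding-partner list held 34 genes that encode ligands, matrix proteins and membrane partners of the receptors. Of its 23 tested genes 11 were called higher, 4 lower and 8 were not called, with a median log2 fold change of 0.63 beside 0.03 for all genes tested, and 11 genes were below the filter. Of those called higher, ITGB3, TGM2, TENM4, NRXN2, C1QL4 and RTN4RL1 passed the filter only through their counts in DB2115 libraries. The filter itself thus favoured a higher value for them, and nothing is read from the count or the median.

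CD55 and WNT7B moved the other way from their receptors. CD55, the ligand of ADGRE5, had 431 and 503 counts in DB2115 libraries, against 1022 and 1175 in VEH libraries, a log2 fold change of -1.34 ± 0.09 (SE). WNT7B, a ligand that acts through ADGRA2 and RECK, had 892 and 876 counts in DB2115 libraries, against 5706 and 6367 in VEH libraries, a log2 fold change of -2.88 ± 0.07 (SE), while RECK was called higher (0.42). PRNP, the prion protein, a ligand of ADGRG6 on Schwann cells, also fell (-1.60). Partners of ADGRG1 included TGM2, a transglutaminase, with 257 and 226 counts in DB2115 libraries, against 1 and 1 in VEH libraries. Of the tetraspanins that form complexes with ADGRG1, CD9 was called higher (log2 fold change 2.66) and CD81 was not called (-0.15, adjusted p = 0.0730 by edgeR). COL3A1, the collagen that ADGRG1 binds in the brain, had 58 and 194 counts in DB2115 libraries, against 66 and 42 in VEH libraries, and was not called (adjusted p = 0.0530 by edgeR). The neurexin NRXN2 was called higher, with 151 and 171 counts in DB2115 libraries, against 8 and 3 in VEH libraries.

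The transducer list held 28 genes for G-protein alpha subunits, arrestins, receptor kinases, small GTPases and their exchange factors, and the ELMO and DOCK proteins that adhesion receptors signal through. Of its 23 tested genes 15 were called higher, 3 lower and 5 were not called, with a median log2 fold change of 0.43. GNAI2, the main inhibitory alpha subunit of blood cells, had 30188 and 29435 counts in DB2115 libraries, against 12586 and 14169 in VEH libraries (log2 fold change 1.05). The arrestin ARRB2 (0.96), the exchange factor ARHGEF11 (0.93), ELMO2 (0.98) and DOCK2 (0.73), the haematopoietic DOCK protein, were also called higher, all as log2 fold changes. DOCK1 was below the filter, with 3 and 7 counts in DB2115 libraries, against 2 and 2 in VEH libraries. GNA15, the haematopoietic alpha subunit of the Gq class, fell by 1.02 on the log2 scale, with 4744 and 5676 counts in DB2115 libraries, against 9394 and 10221 in VEH libraries, and the kinase GRK2 fell by 0.63. GNA13, an alpha subunit through which ADGRG1 activates RHOA, was not called (0.10, adjusted p = 0.154 by edgeR), and RHOA fell by 0.15. The alpha subunit GNA12 (0.53) and the exchange factor ARHGEF12 (0.72) were called higher, and the exchange factor ARHGEF1 was not called (-0.01). With 64.1% of all genes tested called in either direction, these counts are a description of the lists and nothing is read from them.

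**Figure D5:**
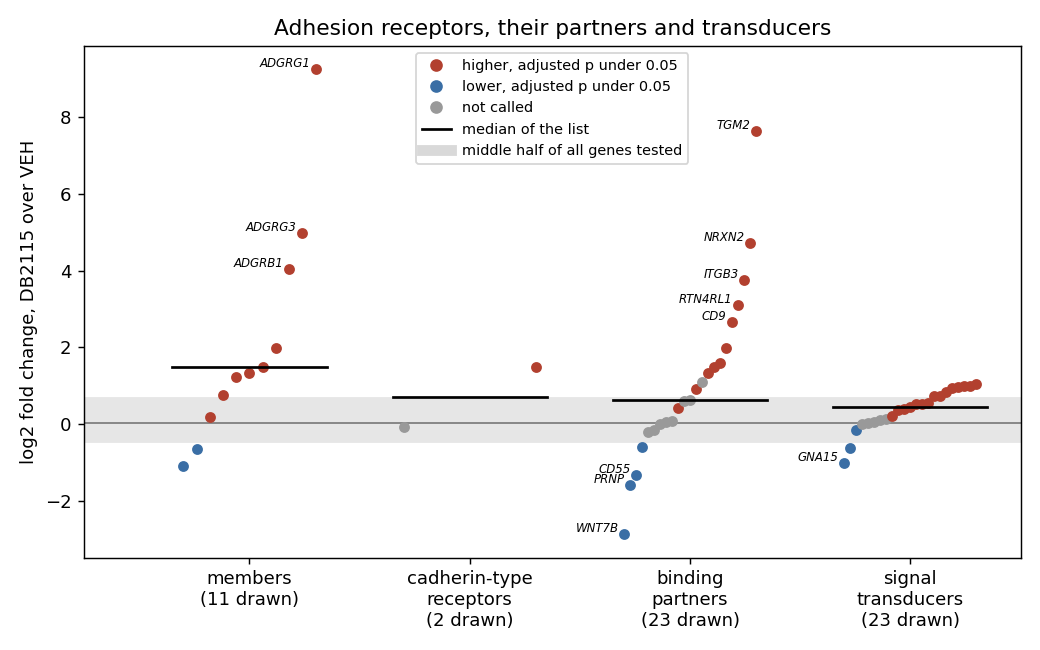
Log2 fold change of DB2115 over VEH (vertical axis) for 11 of the 13 tested receptors and each tested gene of the cadherin-type receptors, binding partners and signal transducers, each set sorted from low to high, with a black line for its median. The medians are 1.49 (over all 13 receptors), 0.70, 0.63 and 0.43, the grey band runs between the quartiles of all genes tested, and the named points include CD55 and WNT7B below it. This contrast chose the receptors, and some receptors and partners passed the filter only through DB2115 libraries, so nothing is read from the order of the medians.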

How the data were processed

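RNA was sequenced from MOLM-13 cells in 2 groups, DB2115 and VEH. The table deposited by the authors gives whole-number read counts for each gene, without normalisation. FastQC, STAR, DESeq2 and hg38 are named in the submitters' processing notes without versions; how reads were assigned to genes, and whether by strand, is not given there. The columns carry letters in place of replicate numbers, so each was assigned to its group only. Of 58381 versioned identifiers 57799 received a symbol, and GENCODE 29 on GRCh38 gave gene types, exons and coordinates for 58261.

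Columns A and B differed beyond sampling noise (median chi-square per gene 1.91 with DB2115 and 1.48 with VEH, against 0.455 for sampling). After TMM scaling, filterByExpr (at least 10 counts, at least 15 in total) kept 17219 genes, which were compared with edgeR 4.0.16 (glmQLFit, glmQLFTest; treatment as the only term; Benjamini-Hochberg adjusted p under 0.05) in R 4.3.3. The common biological coefficient of variation was 6.33%. The fit was tested on simulated data with known changes. Levels are given as mean ± SD of TMM-scaled CPM; standard errors were derived from each fold change with its F value, and are too small where 1 group has few counts. Alternatives used other factors and filters, DESeq2 1.42.0, limma-voom 3.58.1, a block on the letters and each library left out. No shared shift by letter was seen: the A minus B differences of the groups correlated with r = 0.03 over 13403 genes. That cannot show whether the libraries were prepared in pairs. Results for 2 receptors and a few other genes are not reported here; every other receptor is accounted for, with values per library where it was tested or reached 10 counts; other genes come from lists written from general knowledge. Members and lists were chosen with earlier results of these data known. Sequences are from RefSeq (GRCh38.p14); receptors without an entry are named only.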

Additional observations from a re-analysis of the deposited data

How the results depend on the processing

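Of 153 pairs of a tested receptor and an alternative, 150 kept direction and side of the threshold, none reversed, and ADGRL1 lost its call in 3, each with 1 library left out. Over the alternatives that kept every library, 8 to 11 receptors were called higher and 2 lower, of 10 to 25 tested. Beside them 4473 to 6298 genes were called higher and 4466 to 5614 lower, of 12604 to 31249 tested. Without a filter 25 receptors were tested, of which 11 were called higher and 2 lower, and the rest were not called. The lowest receptor count came with the filter of 1 CPM in 3 libraries, which tests fewer receptors (10). Upper-quartile factors gave 6298 genes higher and 4699 lower and moved the median of all genes by 0.09 on the log2 scale. With the letters as a replicate block, 5810 genes were called higher and 5614 lower, with 11 receptors higher and 2 lower; the letters share no stated origin. Without VEH replicate B the log2 fold change of ADGRG1 moved to 11.59, the value that depends most on 1 library. The planned fit of all 6 columns was not run, since the pooled column would count reads again. Depth limits the 16 untested receptors, and with a library left out the lone library of its group is assumed to vary like the other group.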
